A study of Mus musculus with 15 samples.

Results

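The genes described here make cholesterol and fatty acids, or control that synthesis, in a mouse red cell precursor line carrying wild type or mutant GATA1. A list of 33 gene symbols was matched to the array, and each gene was read from a single-symbol probe set, the brightest on average where a gene had more than 1. This gave 32 measured members of 19933 genes tested: 17 enzymes of sterol synthesis, 8 fatty acid genes, 5 regulators and 2 genes of sterol handling. Acat2, the listed enzyme that joins 2 acetyl-CoA molecules, was not analysed here.

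The cells were G1E, proerythroblasts without functional GATA1, the transcription factor that drives red cell maturation. Each line expressed an introduced GATA1 fused to an estrogen receptor domain (ER), so that estradiol switches the protein on. The 5 groups were GATA1-ER with the amino acid change D218G, R216W, R216Q or D218Y, and wild type GATA1-ER, and each was measured as 3 biological replicates. Every group, wild type included, lacked its own GATA1 and had received 100 nM estradiol for 24 h. Untreated cells were not analysed here, so each difference is between induced lines and is not a response to induction. The sources used here do not say how many transductions or clones each construct comes from. A mutation is therefore 1 line here, its effect cannot be told apart from that of the line, and p-values reflect variation between cultures only.

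Cells build cholesterol from acetyl-CoA through mevalonate and isoprenoids to squalene, which is closed into a ring and trimmed to cholesterol. When sterol in the endoplasmic reticulum is low, the escort protein SCAP carries the membrane-bound SREBP factors to the Golgi, where they are cut and released to the nucleus. INSIG proteins hold SCAP back when sterol is plentiful. SREBP2, from Srebf2, chiefly switches on sterol genes, and SREBP1c, a product of Srebf1, chiefly switches on fatty acid genes. Red cell precursors need both lipids for membrane.

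Promoter sequences are shown for the sterol enzymes that fell most in D218G among those with a RefSeq window (Hmgcs1, Cyp51, Idi1 and Msmo1), and for Fasn, a fatty acid gene that did not follow them. Each is the 250 bases before a transcription start in RefSeq on GRCm38.p6, written along the gene. Capitals mark matches to TCACNCCAC, a core of known sterol regulatory elements, and to CCAAT, a motif bound by the factor NF-Y, on either strand.
Hmgcs1, chr13:119690101-119690350, plus strand: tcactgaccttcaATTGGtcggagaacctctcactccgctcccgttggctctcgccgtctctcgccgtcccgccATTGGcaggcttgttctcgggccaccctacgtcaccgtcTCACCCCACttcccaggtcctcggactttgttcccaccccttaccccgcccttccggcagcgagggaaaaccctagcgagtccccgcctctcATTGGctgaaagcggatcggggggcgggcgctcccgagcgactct
Cyp51, chr5:4104698-4104947, minus strand: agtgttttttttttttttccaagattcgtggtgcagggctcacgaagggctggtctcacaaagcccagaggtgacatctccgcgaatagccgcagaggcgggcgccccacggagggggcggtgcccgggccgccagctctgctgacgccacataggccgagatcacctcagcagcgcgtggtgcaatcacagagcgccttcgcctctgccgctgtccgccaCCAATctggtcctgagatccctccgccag
Idi1, chr13:8885356-8885605, plus strand: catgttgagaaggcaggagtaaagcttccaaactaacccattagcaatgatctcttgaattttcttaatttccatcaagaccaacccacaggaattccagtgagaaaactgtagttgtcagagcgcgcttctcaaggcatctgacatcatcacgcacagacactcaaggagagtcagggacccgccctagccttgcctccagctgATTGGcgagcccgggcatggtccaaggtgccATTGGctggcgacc
Msmo1, chr8:64733579-64733828, minus strand: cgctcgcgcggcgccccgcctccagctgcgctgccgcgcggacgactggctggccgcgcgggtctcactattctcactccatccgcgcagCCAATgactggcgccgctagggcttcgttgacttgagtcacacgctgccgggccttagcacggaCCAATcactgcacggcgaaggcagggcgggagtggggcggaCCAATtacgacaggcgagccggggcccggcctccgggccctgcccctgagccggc
Fasn, chr11:120824548-120824797, minus strand: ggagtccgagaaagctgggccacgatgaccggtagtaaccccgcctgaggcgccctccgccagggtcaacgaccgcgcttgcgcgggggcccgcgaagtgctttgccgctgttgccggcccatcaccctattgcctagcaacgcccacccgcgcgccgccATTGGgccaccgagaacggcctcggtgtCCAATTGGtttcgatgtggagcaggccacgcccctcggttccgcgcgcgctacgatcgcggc
In Hmgcs1 the TCACNCCAC match begins 137 bases before the start, between CCAAT matches. A pair of the Fasn matches overlap, because the CCAAT there runs into its own reverse complement. Over windows reaching 50 bases past the start, CCAAT lay in 37.4% of all 32851 RefSeq windows and in 82.4% of the 17 windows of sterol enzymes, with at least 1 window in each of the 14 enzyme genes present. Of the 5 fatty acid genes with a window, 2 held it. TCACNCCAC lay in 1.24% of all windows and, among the members, in Hmgcs1 alone. Other forms of this element were not searched for, so a window without a match may still hold one. AGATAA, a form of the GATA motif, was searched in the same windows and on both strands. It lay in 11.2% of all windows, in no sterol enzyme window and, among the 25 members with a window, in Insig2 alone. Other forms of the GATA motif were not searched for. The E-box CACGTG, which SREBP factors can also bind, lay in 7.15% of all windows and in 3 of the 14 enzyme genes. These are letter matches and not measured binding. Fdps, Fdft1, Sqle, Scd1, Scd2, Fads1 and Stard4 had no window in the table.

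The values were log2 RMA expression values, and the array medians lay between 6.24 and 6.41. Levels of different genes were not compared, because each probe set has its own response. Replicate 3 of D218G stood apart from its line on the third principal component (12.75, against -2.32 and -6.44), so calls in D218G against wild type are also given without it. Wild type (4.13, 9.75 and -1.02) and R216Q (-8.61, -4.61 and -15.99) spread on that component too. Results with each array left out are given at the end. Erythroid markers were above the array median in every line (7 of 7 measured, of 8 listed). Of them 5 fell in D218G, 4 in R216W, 6 in R216Q and 7 in D218Y, where 7.77%, 7.23%, 9.65% and 24.2% of all genes fell. The 7 include Gata1, which thus fell in D218Y. Whether its probe set reads the introduced construct was not tested. Of 7 mast cell markers 4 rose in D218Y, led by Tpsab1 (3.06), Ms4a2 (2.46) and Kit (2.03), where 20.3% of all genes rose, and only Kit rose in each of the other mutants. Line means of the 7 mast cell markers ran between 4.06 and 11.54 in D218Y and between 4.06 and 9.51 in wild type. The 7 myeloid markers all read below the array median, between 4.84 and 6.04, with no call in any mutant. Their part in the results below was not tested, and in bulk RNA fewer cells of a type cannot be told apart from less RNA per cell.

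The lines differed at every member: 32 of 32 passed limma's F test over the 5 lines, a test that 41.9% of all genes passed. The members were chosen with earlier results of these data known, so this count and those below describe them and do not test the group. The sterol enzymes and the fatty acid genes did not order the lines alike. D218G had the lowest mean in 14 of the 17 sterol enzymes, and R216W had the highest in 10. D218Y had the highest mean in 6 of the 8 fatty acid genes and the lowest in the other two, Fads1 and Fads2.

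**Figure D1:**
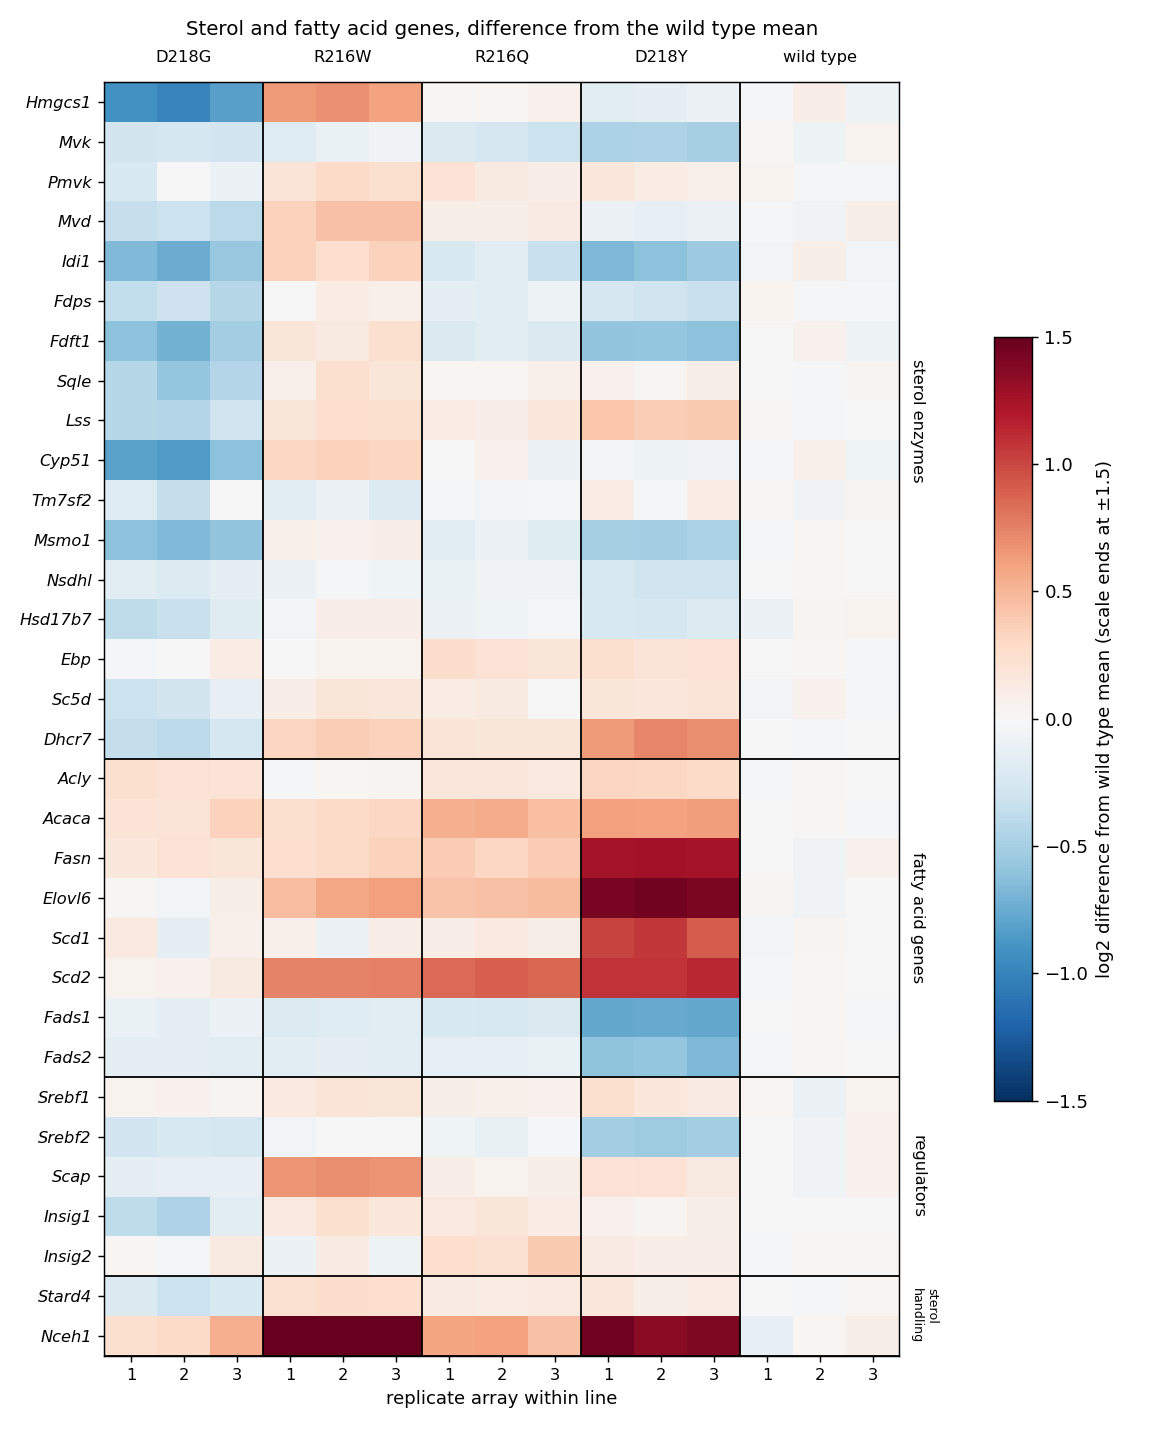
Colour shows the log2 difference of each array (columns, 3 replicates per line) from the wild type mean, for each of 32 genes (rows, grouped by role). The sterol block is blue in D218G and mostly red in R216W, and the darkest reds are fatty acid genes in D218Y and Nceh1 in R216W and D218Y. The mean difference of Nceh1 in R216W, 2.22, lies past the end of the colour scale.

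Hmgcs1, Cyp51, Idi1 and most other sterol enzymes were lower in D218G cells than in wild type. Of 17 enzymes 14 fell and none rose (median log2 difference -0.36), where 18.1% of all genes were called, 10.3% higher and 7.77% lower, around a median of -0.02. Without replicate 3 of D218G 15 enzymes passed. The falls covered both ends of the pathway, with 6 of 7 enzymes leading to squalene and 8 of 10 acting from squalene onward.

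Hmgcs1, the cytosolic HMG-CoA synthase at the entry to the mevalonate pathway, had the widest spread between lines of the enzymes. It read 9.44, 9.35 and 9.53 in D218G, 10.99, 11.04 and 10.96 in R216W, 10.36, 10.38 and 10.41 in R216Q, 10.20, 10.21 and 10.26 in D218Y, and 10.33, 10.45 and 10.27 in wild type. All D218G arrays lay below and all R216W arrays above every array of the other three lines. In D218G the gene fell by 0.91 log2 units with an SE of 0.05 (limma adjusted p = 2.68e-08), that is, it fell by 46.7%, and without replicate 3 it fell by 0.95. In R216W it rose by 0.65 ± 0.05 (limma adjusted p = 4.44e-07). R216Q (0.04 ± 0.05) and D218Y (-0.13 ± 0.05, limma adjusted p = 0.0591) did not pass.

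Cyp51, the demethylase that removes a methyl group from lanosterol, repeated this order with smaller sizes. It read 8.73, 8.69 and 8.93 in D218G, 9.85, 9.89 and 9.87 in R216W, 9.54, 9.61 and 9.45 in R216Q, 9.50, 9.47 and 9.49 in D218Y, and 9.53, 9.62 and 9.48 in wild type. D218G again lay below and R216W above every other array, while R216Q and D218Y overlapped wild type. The difference from wild type was -0.76 ± 0.06 in D218G and 0.33 ± 0.06 in R216W, with limma adjusted p = 5.2e-07 and 9.40e-04. Without replicate 3 the D218G difference was -0.83.

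Idi1, the isomerase that makes the reactive isoprenoid unit, was low in both D218 lines. It read 11.16, 11.07 and 11.24 in D218G, 12.16, 12.07 and 12.16 in R216W, 11.59, 11.65 and 11.48 in R216Q, 11.14, 11.20 and 11.26 in D218Y, and 11.77, 11.90 and 11.78 in wild type. The D218G and D218Y arrays overlapped each other and lay below all others. Idi1 differed from wild type by -0.66 ± 0.06 in D218G, 0.32 ± 0.06 in R216W, -0.24 ± 0.06 in R216Q and -0.61 ± 0.06 in D218Y, and all 4 differences passed. Without replicate 3 the D218G difference was -0.70. A second probe set of the gene gave -0.60, 0.29, -0.25 and -0.56.

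Dhcr7, the reductase of the last step to cholesterol, was ordered in another way. It read 8.52, 8.49 and 8.62 in D218G, 9.20, 9.25 and 9.22 in R216W, 9.08, 9.07 and 9.06 in R216Q, 9.53, 9.62 and 9.57 in D218Y, and 8.89, 8.86 and 8.89 in wild type. No pair of lines overlapped. It fell in D218G (-0.34 ± 0.04, and -0.38 without replicate 3) and rose in R216Q (0.19 ± 0.04), R216W (0.34 ± 0.04) and most in D218Y (0.69 ± 0.04, limma adjusted p = 1.39e-09).

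**Figure D2:**
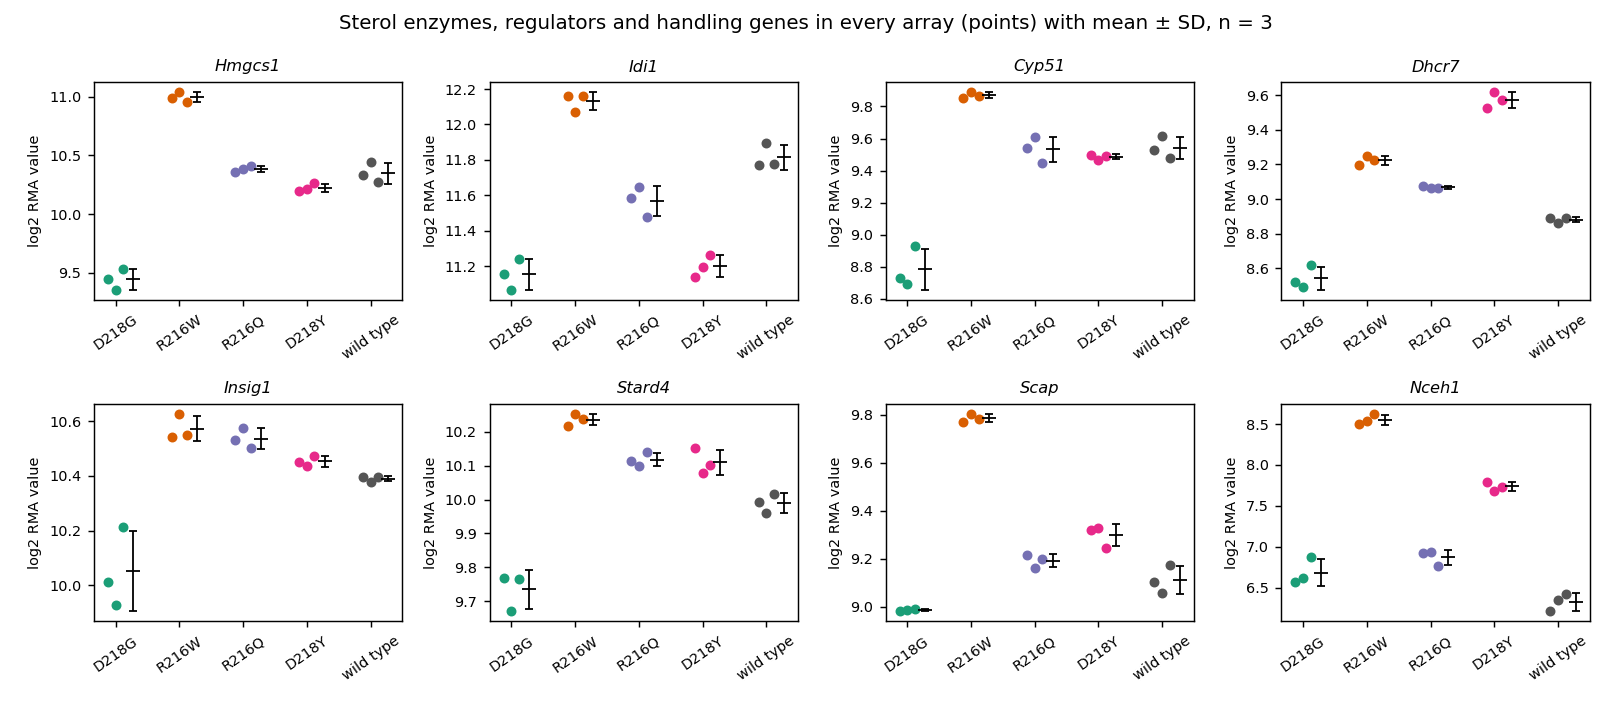
Points are log2 RMA values of the 3 arrays of each line, and the bars beside them are the mean ± SD, for 4 sterol enzymes, Insig1, Stard4, Scap and Nceh1, each on its own vertical scale that does not start at 0. D218G is lowest and R216W highest for Hmgcs1 and Cyp51, while D218Y is highest for Dhcr7 and R216W is highest for Nceh1.

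The other enzymes that fell in D218G fell by less than Cyp51. They were Msmo1 (-0.62), a methyl sterol oxidase, Fdft1 (-0.62), the squalene synthase, Sqle (-0.48), the squalene epoxidase, Lss (-0.39), which closes the ring, Fdps (-0.37), Mvd (-0.36), Hsd17b7 (-0.30), Mvk (-0.28), Sc5d (-0.24) and Nsdhl (-0.17). Without replicate 3 these 10 differences also passed and lay between -0.66 for Fdft1 and -0.18 for Nsdhl. Pmvk, Tm7sf2 and Ebp were at -0.11, -0.18 and 0.03 and did not pass.

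In R216W cells the sterol enzymes that changed were higher than in wild type. Of 17 enzymes 9 rose and none fell (median 0.17), where 16.6% of all genes were called, 9.36% higher and 7.23% lower, around a median of -0.02. Besides Hmgcs1, Cyp51, Dhcr7 and Idi1 they were Mvd (0.41 ± 0.04), Pmvk (0.24 ± 0.06), Lss (0.22 ± 0.04), Fdft1 (0.18 ± 0.05) and Sqle (0.17 ± 0.05). The smallest were the least firm: Sqle passed in 16 of 22 alternative settings (limma adjusted p between 0.00546 and 0.156) and Fdft1 in 18 (between 0.00148 and 0.0912). Tm7sf2 (-0.15), Mvk (-0.12) and Nsdhl (-0.06) had the opposite sign and did not pass.

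Mvd, which makes the isopentenyl unit that Idi1 acts on, showed the opposite calls plainly. It read 8.41, 8.44 and 8.35 in D218G, 9.10, 9.20 and 9.20 in R216W, 8.84, 8.84 and 8.88 in R216Q, 8.66, 8.63 and 8.67 in D218Y, and 8.73, 8.70 and 8.84 in wild type. D218G was below and R216W above all other arrays, and R216Q (0.10) and D218Y (-0.10) did not pass against wild type. Fdft1 read 11.16, 11.07 and 11.25 in D218G, 11.95, 11.91 and 12.01 in R216W, 11.55, 11.61 and 11.55 in R216Q, 11.18, 11.20 and 11.15 in D218Y, and 11.78, 11.84 and 11.70 in wild type. R216W lay above wild type, R216Q below it, and the D218 lines lowest, overlapping each other.

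Sqle read 10.29, 10.14 and 10.28 in D218G, 10.80, 10.96 and 10.90 in R216W, 10.75, 10.75 and 10.79 in R216Q, 10.79, 10.75 and 10.81 in D218Y, and 10.71, 10.69 and 10.76 in wild type. Only D218G stood well apart, and R216Q and D218Y overlapped wild type. Lss read 9.67, 9.66 and 9.79 in D218G, 10.27, 10.35 and 10.33 in R216W, 10.20, 10.20 and 10.26 in R216Q, 10.51, 10.47 and 10.49 in D218Y, and 10.12, 10.07 and 10.10 in wild type. Here D218G was lowest and D218Y highest, with no line overlapping another. Sc5d, a desaturase late in the pathway, read 9.58, 9.62 and 9.77 in D218G, 10.00, 10.07 and 10.06 in R216W, 10.01, 10.04 and 9.90 in R216Q, 10.08, 10.05 and 10.09 in D218Y, and 9.86, 9.97 and 9.87 in wild type. D218G lay below all other arrays.

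In the direct comparison of these mutants, whose differences use no wild type value, 15 of the 17 enzymes were lower in D218G than in R216W and none was higher (median -0.61), where 22% of all genes were called, 11.3% higher and 10.7% lower. The count was also 15 without replicate 3 of D218G. Hmgcs1 differed by -1.55 ± 0.05 (limma adjusted p = 1.7e-11), Cyp51 by -1.09 ± 0.06 (3.61e-09) and Idi1 by -0.97 ± 0.06 (8.83e-09). Only Tm7sf2 (-0.03) and Ebp (-0.01) did not pass, and Nsdhl (-0.11) and Mvk (-0.16) passed in 15 and 18 of 22 alternatives.

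R216Q cells differed less from wild type at these enzymes. Of 17 enzymes 3 rose and 4 fell (median -0.01), where 21.5% of all genes were called, 11.8% higher and 9.65% lower. Ebp (0.22), Dhcr7 (0.19) and Lss (0.12) rose, and Mvk (-0.26), Idi1 (-0.24), Fdft1 (-0.20) and Msmo1 (-0.15) fell. The 3 that rose and Msmo1 are among the 10 enzymes acting from squalene onward, of which 6 were not called. With array medians subtracted 3 of the 7 passed. The rise of Lss passed in 8 of 22 alternatives (limma adjusted p between 0.0135 and 0.182). The lines with different changes of the same arginine also differed directly: 9 enzymes were higher in R216W than in R216Q and 1, Ebp, was lower (median 0.15), where 16.9% of all genes were called, 8.25% higher and 8.65% lower. Hmgcs1 differed by 0.61 ± 0.05, Idi1 by 0.56 ± 0.06 and Fdft1 by 0.38 ± 0.05.

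In D218Y cells sterol enzymes went both ways. Of 17 enzymes 4 rose and 7 fell (median -0.10), where 44.4% of all genes were called, 20.3% higher and 24.2% lower, around a median of -0.07. Of the 7 enzymes leading to squalene 4 fell and none rose: Idi1, Fdft1 (-0.60 ± 0.05), Mvk (-0.48 ± 0.04) and Fdps (-0.30 ± 0.04). Of the 10 acting from squalene onward 4 rose, Dhcr7, Lss (0.39 ± 0.04), Ebp (0.22 ± 0.04) and Sc5d (0.17 ± 0.05), and 3 fell, Msmo1 (-0.49 ± 0.04), Nsdhl (-0.27 ± 0.03) and Hsd17b7 (-0.23 ± 0.06). This division at squalene was made with the values known and carries no test. The rise of Sc5d passed in 20 of 22 alternatives (limma adjusted p between 0.00406 and 0.0571).

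The lines with different changes of the same aspartate differed directly at 13 enzymes, 11 higher and 2 lower in D218Y than in D218G (median 0.23), where 33% of all genes were called, 17.4% higher and 15.6% lower. Without replicate 3 of D218G 12 passed. Dhcr7 differed by 1.03 ± 0.04 (limma adjusted p = 4.4e-11), Hmgcs1 by 0.78 ± 0.05 and Lss by 0.78 ± 0.04. Idi1 (0.04 ± 0.06), Fdft1 (0.02 ± 0.05), Fdps (0.07 ± 0.04) and Hsd17b7 (0.07 ± 0.06), low in both lines, did not pass.

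**Figure D3:**
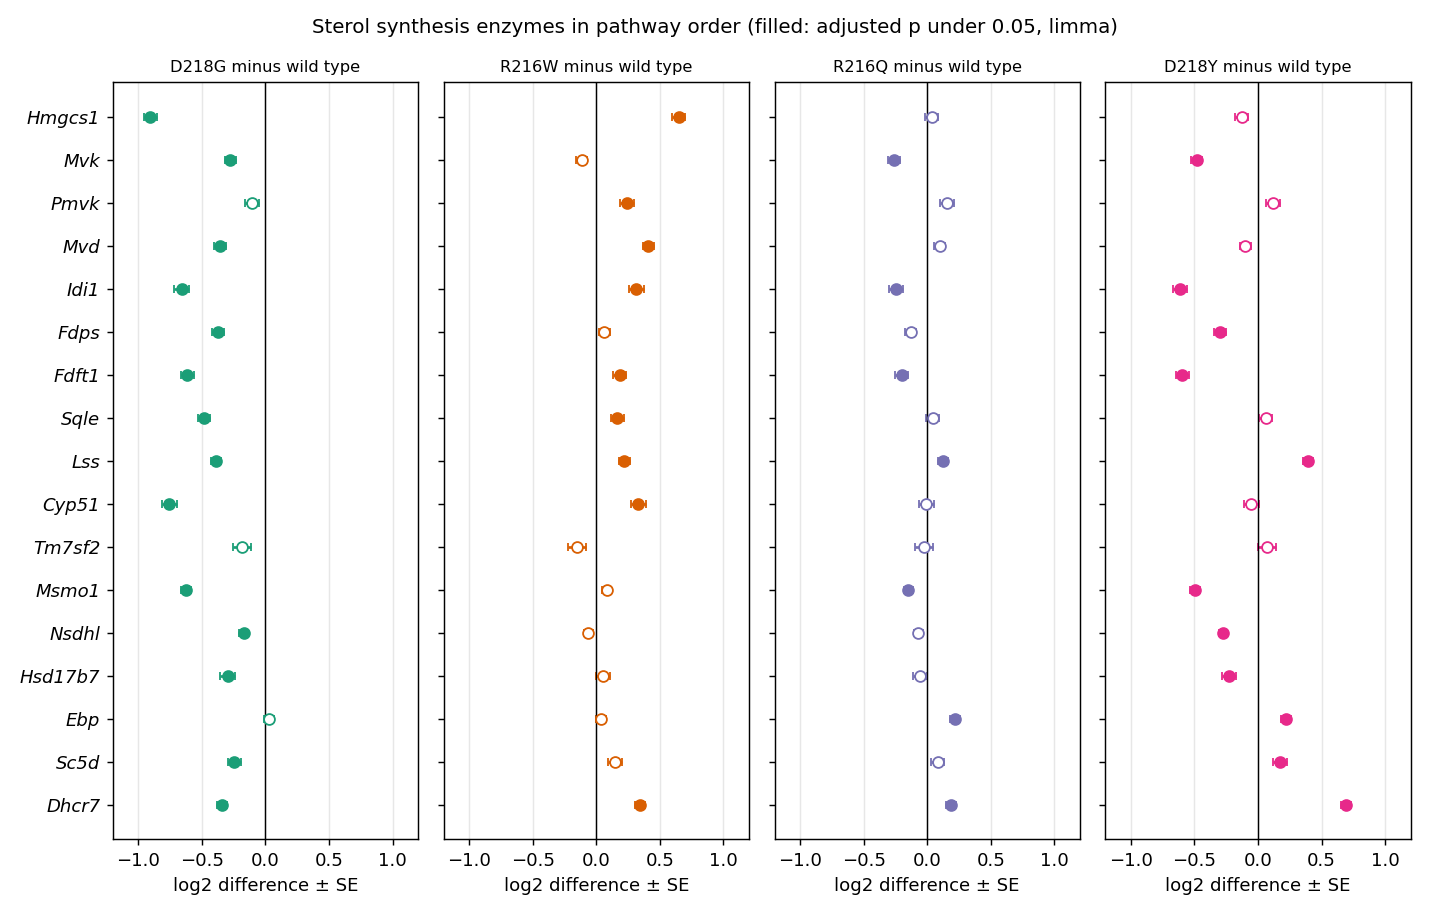
Log2 difference from wild type ± SE of each sterol enzyme in pathway order from top to bottom, for D218G, R216W, R216Q and D218Y, with filled points for limma adjusted p under 0.05. All filled points lie left of 0 in D218G and right of 0 in R216W, and in D218Y they lie on both sides.

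The fatty acid genes had their largest differences in D218Y. All 8 were called there, 6 higher and 2 lower (median 0.81). In R216Q 5 rose and 2 fell (median 0.26), in R216W 4 rose and 2 fell (median 0.15), and in D218G 3 rose and 2 fell (median 0.05). The D218G count was also 5 without replicate 3, but 3 with array medians subtracted and 2 when only the compared lines were fitted. The comparisons share the wild type arrays. Of all genes 44.4% were called in D218Y, 21.5% in R216Q, 16.6% in R216W and 18.1% in D218G.

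Elovl6, which lengthens palmitate, read 7.99, 7.93 and 8.06 in D218G, 8.43, 8.55 and 8.58 in R216W, 8.40, 8.40 and 8.44 in R216Q, 9.39, 9.42 and 9.38 in D218Y, and 8.01, 7.92 and 7.98 in wild type. D218Y lay above all other arrays, R216W and R216Q overlapped in the middle, and D218G overlapped wild type. The rise was 1.43 ± 0.05 in D218Y (limma adjusted p = 3.65e-12), 0.55 ± 0.05 in R216W and 0.45 ± 0.05 in R216Q, and D218G was at 0.02 ± 0.05.

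Fasn, the synthase that builds palmitate, read 9.84, 9.89 and 9.86 in D218G, 9.92, 9.96 and 10.02 in R216W, 10.06, 9.99 and 10.06 in R216Q, 10.93, 10.93 and 10.92 in D218Y, and 9.67, 9.62 and 9.73 in wild type. Every mutant array was above every wild type array, and the D218Y arrays were far above the rest. The rise was 1.25 ± 0.04 in D218Y (limma adjusted p = 2.87e-12), 0.36 ± 0.04 in R216Q, 0.29 ± 0.04 in R216W and 0.19 ± 0.04 in D218G, with the same D218G value without replicate 3.

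Scd2, a desaturase that puts the first double bond into saturated fatty acids, read 11.09, 11.11 and 11.17 in D218G, 11.78, 11.79 and 11.80 in R216W, 11.89, 11.94 and 11.91 in R216Q, 12.12, 12.13 and 12.17 in D218Y, and 11.03, 11.06 and 11.04 in wild type. D218G lay near wild type (0.08 ± 0.03, not called) and the other mutants lay well above it. The rise was 0.75 ± 0.03 in R216W, 0.87 ± 0.03 in R216Q and 1.10 ± 0.03 in D218Y. Its close relative Scd1 was dim, between 4.39 and 5.60 in all arrays, and was called in D218Y alone (0.99 ± 0.07). It read below the array median throughout, and with no background measure used here the size of that difference is not firm. Whether probes of these related genes share signal was not tested.

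Acaca, the acetyl-CoA carboxylase that commits carbon to fatty acids, rose in all 4 mutants, by 0.25 ± 0.04 in D218G (0.20 without replicate 3), 0.27 ± 0.04 in R216W, 0.51 ± 0.04 in R216Q and 0.62 ± 0.04 in D218Y. Acly, which supplies cytosolic acetyl-CoA to both branches, rose in D218G (0.22 ± 0.03, and 0.23 without replicate 3), R216Q (0.16 ± 0.03) and D218Y (0.31 ± 0.03) and was at 0.01 ± 0.03 in R216W. Fads1 and Fads2, the desaturases of polyunsaturated fatty acids, went the other way and fell in every mutant. In D218Y Fads1 fell by 41.1% (-0.76 ± 0.03) and Fads2 fell by 34.9% (-0.62 ± 0.03), beside differences between -0.23 and -0.11 in the other mutants. Those smaller falls were less firm: Fads1 in D218G passed in 18 of 22 alternatives (limma adjusted p between 1.95e-04 and 0.369) and Fads2 in R216Q in 16 (between 0.0011 and 0.257). Fads2 in D218G passed in 20, and both genes in R216W in 21. Without replicate 3 the D218G differences were -0.13 for Fads1 and -0.14 for Fads2, and both passed.

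**Figure D4:**
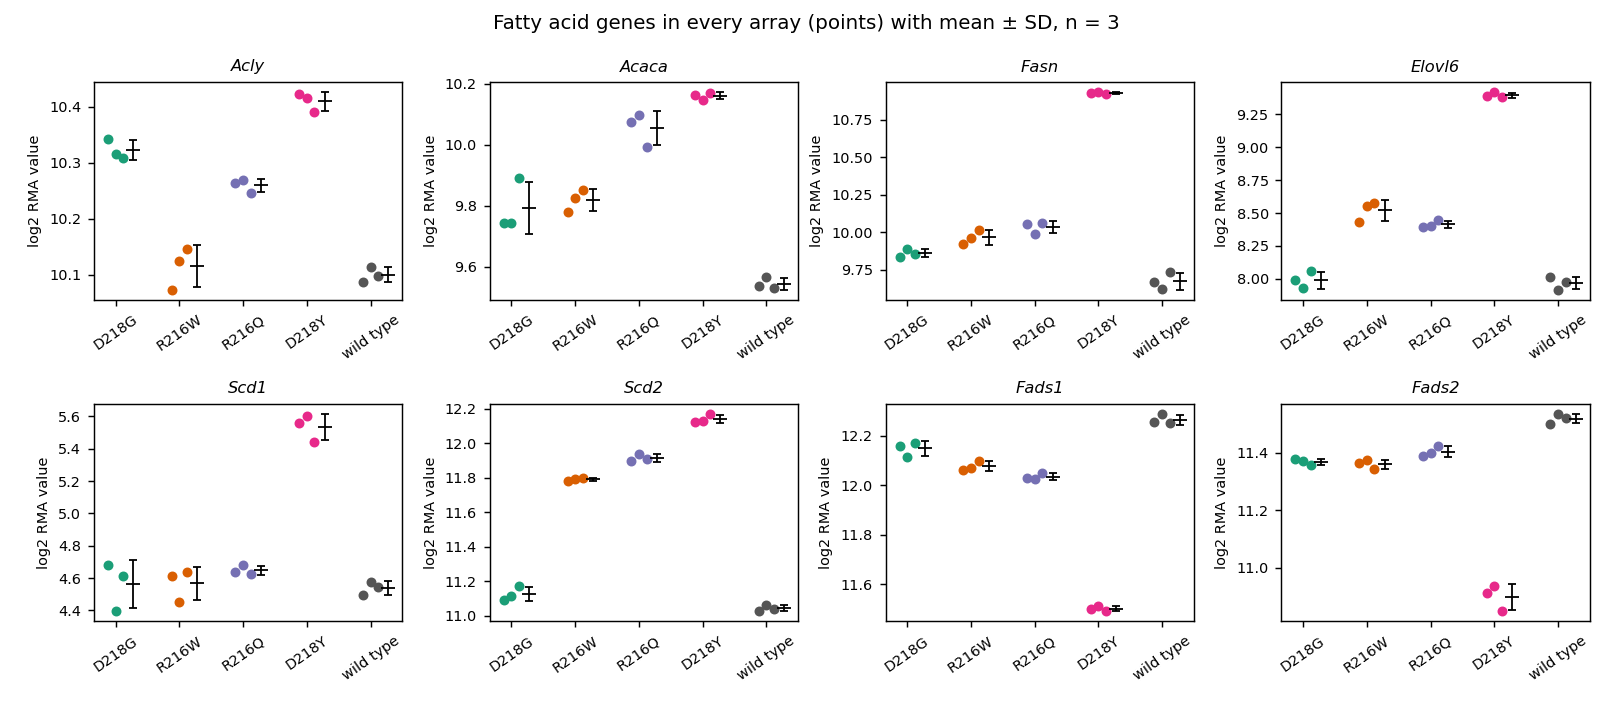
Points are log2 RMA values of the 3 arrays of each line for the 8 fatty acid genes, with the mean ± SD beside them, each gene on its own vertical scale that does not start at 0. D218Y is highest in 6 panels and lowest for Fads1 and Fads2, where wild type is highest.

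Between D218Y and D218G 5 fatty acid genes were higher and 2 lower in D218Y (median 0.67), where 33% of all genes were called, 17.4% higher and 15.6% lower. They were led by Elovl6 (1.41 ± 0.05), Fasn (1.07 ± 0.04) and Scd2 (1.01 ± 0.03). Acly (0.09 ± 0.03, limma adjusted p = 0.0503) did not pass. Between D218G and R216W 3 of 8 were called, where 22% of all genes were: Scd2 (-0.66 ± 0.03) and Elovl6 (-0.53 ± 0.05) were lower in D218G and Acly (0.21 ± 0.03) was higher. With eBayes using trend and robust 5 were called. Between R216W and R216Q, where 8.65% of all genes were lower, 3 were lower in R216W, Acaca (-0.24 ± 0.04), Acly (-0.14 ± 0.03) and Scd2 (-0.12 ± 0.03), of which 1 passed with array medians subtracted.

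The mean difference from wild type was taken over each branch in every array. Over the 17 sterol enzymes it was -0.42, -0.44 and -0.33 in D218G, 0.13, 0.19 and 0.18 in R216W, -0.01, 0.00 and -0.02 in R216Q, and -0.08, -0.11 and -0.08 in D218Y. Over the 8 fatty acid genes it was 0.07, 0.03 and 0.10 in D218G, 0.17, 0.19 and 0.23 in R216W, 0.26, 0.27 and 0.26 in R216Q, and 0.54, 0.56 and 0.52 in D218Y. The wild type arrays lay within 0.01 of 0 on both. Replicate 3 of D218G was the D218G array nearest to wild type for the sterol enzymes.

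**Figure D5:**
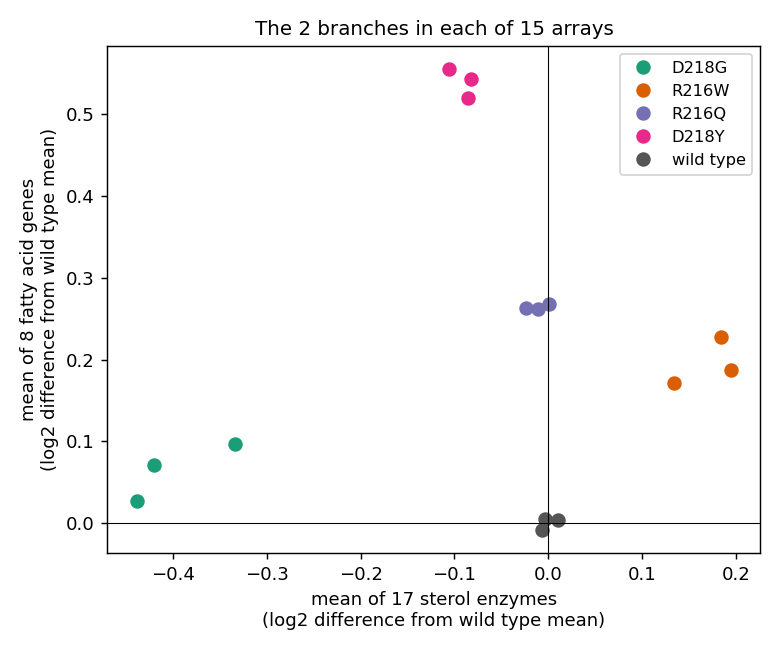
Each point is an array, placed by its mean log2 difference from the wild type mean over 17 sterol enzymes (horizontal) and over 8 fatty acid genes (vertical). The lines form separate clusters, with D218G farthest left and D218Y highest.

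The regulators that were called differed between lines. Of 5 regulators 3 fell in D218G, 3 rose in R216W, 1 rose in R216Q, and in D218Y 2 rose and 1 fell, where 18.1%, 16.6%, 21.5% and 44.4% of all genes were called. Scap, the escort of SREBP, read 8.98, 8.99 and 8.99 in D218G, 9.77, 9.80 and 9.78 in R216W, 9.22, 9.16 and 9.20 in R216Q, 9.32, 9.33 and 9.24 in D218Y, and 9.10, 9.06 and 9.17 in wild type. R216W stood far above all other arrays and D218G just below them. Scap rose by 0.67 ± 0.04 in R216W (limma adjusted p = 1.26e-08) and by 0.19 ± 0.04 in D218Y. Its fall in D218G (-0.13 ± 0.04, limma adjusted p = 0.0332) passed in 14 of 22 alternatives, with adjusted p between 0.00951 and 0.258, and did not pass without replicate 3 (-0.13, adjusted p = 0.055).

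Insig1, which retains SCAP and is itself a known SREBP target, read 10.01, 9.93 and 10.21 in D218G, 10.54, 10.63 and 10.55 in R216W, 10.53, 10.58 and 10.50 in R216Q, 10.45, 10.44 and 10.47 in D218Y, and 10.40, 10.38 and 10.40 in wild type. D218G lay below all other arrays, with replicate 3 nearest to them. It fell in D218G (-0.34 ± 0.06, and -0.42 without replicate 3) and rose in R216W (0.18 ± 0.06, limma adjusted p = 0.0418), a rise that passed in 8 of 22 alternatives (adjusted p between 0.00249 and 0.162). Insig2, its relative, read 9.87, 9.81 and 9.97 in D218G, 9.75, 9.96 and 9.76 in R216W, 10.09, 10.06 and 10.23 in R216Q, 9.96, 9.93 and 9.93 in D218Y, and 9.80, 9.85 and 9.85 in wild type. Only R216Q stood above the rest, with a rise of 0.29 ± 0.06 (limma adjusted p = 0.00207).

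Srebf2 read 10.90, 10.96 and 10.93 in D218G, 11.14, 11.18 and 11.19 in R216W, 11.12, 11.08 and 11.15 in R216Q, 10.67, 10.65 and 10.68 in D218Y, and 11.18, 11.14 and 11.25 in wild type. Both D218 lines lay below all other arrays, and R216W and R216Q overlapped wild type. It fell by 0.52 in D218Y (SE 0.04, limma adjusted p = 2.32e-08) and by 0.26 in D218G (SE 0.04, 1.68e-04), also by 0.26 without replicate 3. Srebf2 was lower in D218Y than in D218G (-0.26 ± 0.04), a comparison in which 11 sterol enzymes were higher.

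Srebf1 varied little, at 9.23, 9.24 and 9.23 in D218G, 9.33, 9.37 and 9.36 in R216W, 9.27, 9.25 and 9.24 in R216Q, 9.42, 9.34 and 9.31 in D218Y, and 9.21, 9.09 and 9.24 in wild type. D218Y and R216W lay above wild type and rose by 0.18 ± 0.04 and 0.17 ± 0.04. A probe set for the gene as a whole does not tell its transcripts for SREBP1a and SREBP1c apart.

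Stard4, a carrier that moves cholesterol between membranes, read 9.77, 9.67 and 9.77 in D218G, 10.22, 10.25 and 10.24 in R216W, 10.11, 10.10 and 10.14 in R216Q, 10.15, 10.08 and 10.10 in D218Y, and 9.99, 9.96 and 10.02 in wild type. D218G was lowest and R216W highest, as for Hmgcs1. It fell in D218G (-0.26 ± 0.04, and -0.27 without replicate 3) and rose in R216W (0.25 ± 0.04), with smaller rises in R216Q (0.13 ± 0.04) and D218Y (0.12 ± 0.04) that passed in 16 and 19 of 22 alternatives.

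Nceh1, a hydrolase that frees cholesterol from stored ester, had the largest difference of all members. It read 6.57, 6.62 and 6.87 in D218G, 8.50, 8.53 and 8.62 in R216W, 6.92, 6.93 and 6.77 in R216Q, 7.79, 7.69 and 7.73 in D218Y, and 6.21, 6.35 and 6.42 in wild type. R216W was far above the rest, D218Y came next, and D218G and R216Q overlapped above wild type. The rise was 2.22 ± 0.08 in R216W (limma adjusted p = 7.43e-11), 1.41 ± 0.08 in D218Y, 0.55 ± 0.08 in R216Q and 0.36 ± 0.08 in D218G, or 0.26 in D218G without replicate 3.

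Other lipid genes were counted from lists of textbook members, and each count stands against the 18.1% of all genes called in D218G, 16.6% in R216W, 21.5% in R216Q and 44.4% in D218Y. So few genes leave several of these counts near those shares, 1 of 8 and 1 of 6 in D218G among them. Of 8 other genes of sterol synthesis and uptake that were measured (of 15 listed), 1 rose in D218G, none changed in R216W, 2 rose and 2 fell in R216Q, and 3 rose and 3 fell in D218Y. Those with the largest changes in D218Y were Tmem97 (0.50), Npc1 (0.36), which exports cholesterol from lysosomes, and Scarb1 (0.26), a lipoprotein receptor. Of 6 partners of SREBP processing and INSIG turnover (of 8 listed), 1 fell in D218G, 1 rose and 1 fell in R216W, 2 fell in R216Q and 4 fell in D218Y. Rnf139 (-0.80 in D218Y) and Rnf145 (-0.55 in R216W), ubiquitin ligases of the endoplasmic reticulum, led them. Rnf139 also fell in D218G (-0.43) and R216Q (-0.42), and Rnf145 also fell in D218Y (-0.29) and R216Q (-0.14).

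Of 18 other genes of fatty acid synthesis, elongation and activation (of 20 listed), 5 rose and 2 fell in D218G, 8 rose and 2 fell in R216W, 7 rose and 1 fell in R216Q, and 11 rose and 1 fell in D218Y, where 20.3% of all genes rose and 24.2% fell. The median difference in D218Y was 0.29, where the median of all genes was -0.07. Me1, the malic enzyme that supplies NADPH, rose by 1.67 ± 0.08 in D218Y, Acsl5, which activates fatty acids, by 1.03 ± 0.05 and Hsd17b12, of the elongation cycle, by 0.97 ± 0.08. Elovl5, an elongase of polyunsaturated chains, rose by 0.81 ± 0.05 in R216W.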

How the data were processed

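Total RNA of 15 cultures was measured on Affymetrix mouse arrays. The deposited values are log2 expression values, which the authors made with Partek 6.6 and RMA, per the submitters' processing notes. RMA corrects background, makes array distributions alike by quantiles and summarises probes. It compresses differences of dim genes. The sources used here give no settings. Values were used unchanged, with no filter. Arrays carry no read depth, so their number limits precision.

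The platform annotation gives 1 symbol to 21780 of 28350 probe sets, several to 1618 and none to 4952. Probe sets with 1 symbol gave 19933 genes. The test was limma 3.58.1 (R 4.3.3), with 1 mean per line over all 15 arrays and eBayes without trend. All lines share 1 spread per gene in this fit. The median SD within a line was 0.0794 in D218G, 0.0498 in R216W, 0.0545 in R216Q, 0.0498 in D218Y and 0.0632 in wild type. The SEs and p-values of D218G may therefore be too small. P-values are two-sided and Benjamini-Hochberg adjusted over all genes of a contrast, and a call is an adjusted p under 0.05. There were 7 contrasts: each mutant against wild type, D218G against R216W, R216W against R216Q, and D218Y against D218G. The fit was tested on simulated data, with independent arrays and 1 spread per gene for all lines. That setting cannot show how the fit behaves where lines differ in spread. Rose and fell are used of calls, and ± is limma's moderated SE unless SD is named.

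Values in every array are given for the 4 sterol enzymes and 3 fatty acid genes with the largest differences from wild type, for the regulators and sterol handling genes, and for members with calls of opposite sign. From each other list up to 4 genes with the largest calls were eligible to be named. The members and lists were chosen with earlier results of these data known. Alternatives were cyclic loess, subtracting array medians, genes above the median intensity, the compared lines alone, trend with robust eBayes, a replicate block, averaging the probe sets of a gene and each array left out. Another background correction was not tried, since only the RMA values were used here.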

Additional observations from a re-analysis of the deposited data

Results flagged for a closer look

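For 18 differences between mutant lines, both lines differed from wild type past the threshold but in opposite directions, and the mutants also differed from each other in limma's fit over all genes. The directions share the wild type arrays, and the differences printed here do not use them. Opposite calls make the direct difference as large as both changes together, with the same SE. Its own call therefore nearly follows from them and adds no separate support.

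Between D218G and R216W, where D218G was below and R216W above wild type, the log2 difference was -1.55 for Hmgcs1, -1.09 for Cyp51, -0.97 for Idi1, -0.80 for Fdft1, -0.77 for Mvd, -0.68 for Dhcr7, -0.65 for Sqle and -0.61 for Lss among the sterol enzymes. It was -0.80 for Scap, -0.52 for Insig1 and -0.50 for Stard4. Between D218Y and D218G, where D218Y was above and D218G below wild type, it was 1.03 for Dhcr7, 0.78 for Lss, 0.42 for Sc5d, 0.38 for Stard4 and 0.31 for Scap. Between R216W and R216Q, changes of the same residue, it was 0.56 for Idi1 and 0.38 for Fdft1, with R216W above and R216Q below wild type. No fatty acid gene had calls of opposite sign. Some of the calls against wild type behind these pairs were not firm. In R216W the rises of Insig1, Sqle and Fdft1 did not pass in 14, 6 and 4 of 22 alternatives. The fall of Scap in D218G did not pass in 8.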

How the results depend on the processing

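The 151 called differences of members kept their direction in every alternative that could be run. Cyclic loess lost 2 calls, subtracting array medians 27, the compared lines alone 18, and leaving out an array between 3 and 8. Trend with robust eBayes and the mean of probe sets lost 0 of 151, and genes above the median intensity lost 0 of the 149 it tested. Among counts of fatty acid genes, D218G against wild type went to 3 with array medians subtracted and 2 with the compared lines alone, where 5 were reported, R216W against R216Q to 1 with medians subtracted, where 3 were reported, and D218G against R216W to 5 both with genes above the median intensity (7 tested) and with trend and robust eBayes, where 3 were reported. The count of sterol enzymes in R216Q went to 3 with medians subtracted, where 7 were reported. The cause was not tested. Subtracting medians moved the median of all genes by at most 0.0951. With an array left out, sterol enzymes called against wild type numbered 14 to 15 in D218G, 7 to 11 in R216W, 6 to 9 in R216Q and 10 to 12 in D218Y, and the other counts also stayed within 1.5 times. Same-numbered replicates did not deviate together in every comparison (correlations between -0.50 and 0.41), so the numbers were not taken as pairs. With the replicate block 8 calls were lost, and sterol enzyme counts were 14 in D218G, 9 in R216W, 6 in R216Q and 11 in D218Y. Small differences on 3 arrays a line are the least firm, and Scd1 is near the dim end of the range.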

Other observations

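Fatty acid oxidation genes, the pathway opposite to synthesis, were also listed, and 9 of 10 were measured. In D218Y 2 rose and 6 fell, against 4 rises and 1 fall in R216W, 1 and 3 in R216Q, and 0 and 3 in D218G. Of all genes 44.4% were called in D218Y, 16.6% in R216W, 21.5% in R216Q and 18.1% in D218G. Cpt1a, which admits long-chain fatty acids to mitochondria, fell by 1.82 on the log2 scale in D218Y (SE 0.04, limma adjusted p = 2.49e-14). Etfdh (-0.55) and Acadm (-0.37) also fell there and Acadl (0.35) rose. Of 6 genes of sterol efflux and its LXR control that were measured, of 7 listed, 1 rose and 2 fell in D218Y, where 44.4% of all genes were called. Abca1, the cholesterol exporter, rose there by 1.04 ± 0.06, and Abcg1 (-0.20) and Nr1h3 (-0.22) fell. Only Lpcat3 was called in D218G (0.16), R216W (0.13) and R216Q (0.26), where 18.1%, 16.6% and 21.5% of all genes were called. Of 10 measured genes of isoprenoid side branches, of 12 listed, 4 rose and 2 fell in D218Y, where 20.3% of all genes rose and 24.2% fell. In D218G 2 rose and 1 fell, in R216W 1 and 3, and in R216Q 1 and 1, where 18.1%, 16.6% and 21.5% of all genes were called. Nus1, of dolichol synthesis, rose in D218Y (0.81), R216Q (0.28) and D218G (0.26). Genes of protein prenylation went both ways in D218Y, with Fntb (0.43) higher and Pggt1b (-0.51) lower. The same held in D218G, at 0.55 and -0.39. Pggt1b also fell in R216Q (-0.34), and Fntb fell in R216W (-0.30).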
